A study of Homo sapiens with 6 samples.

Results

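Prostaglandin E2 is the main prostaglandin of the kidney, and 10 genes that make it, sense it and break it down were followed in HK-2 cells exposed to OX-LDL. The 10 genes were taken by symbol from a table of 58825 genes, and each had 1 row: PLA2G4A, PTGS1, PTGS2, PTGES, PTGES2, PTGES3, PTGER2, PTGER4, HPGD and PTGR1. Of the 10, 9 passed the minimum level for testing and PTGER4 did not. HK-2 cells are an immortalized human cell line from the kidney tubule epithelium. OX-LDL stands for oxidized low-density lipoprotein, a cholesterol-carrying particle. The sequencing of poly(A) RNA covered 3 Control libraries, labelled as untreated, and 3 OX-LDL libraries from cells exposed for 48 h to the lipoprotein at 25 μg/ml. The treated cells had been kept in low-serum medium beforehand, and the sources used here do not say for how long the Control cultures were kept or whether their serum was lowered. Both groups are the same unmodified line, so the data describe 1 line in culture and not the kidney. The labels do not say whether the libraries of a group came from separate cultures, so p-values measure the spread between these libraries.

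In the textbook pathway, a cytosolic phospholipase A2 frees arachidonate from membrane phospholipids, a cyclooxygenase turns it into prostaglandin H2, and a prostaglandin E synthase turns that into prostaglandin E2. The product leaves the cell and acts on a family of G protein-coupled receptors, of which those encoded by PTGER2 and PTGER4 raise cyclic AMP, and it is inactivated by oxidation and then reduction. In the kidney it is known for its part in salt and water handling, renin release and blood flow.

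After OX-LDL, 3 of the 9 tested genes rose, the synthase genes PTGES and PTGES3 and the receptor gene PTGER2, by 2.75-fold, 1.98-fold and 1.95-fold. None of the 9 fell at an adjusted p under 0.05. The cyclooxygenase genes PTGS1 and PTGS2 and the inactivating dehydrogenase gene HPGD had overlapping groups. The synthase gene PTGES2 and the reductase gene PTGR1 were lower in every OX-LDL library than in every Control library without passing the adjusted test. Called here means an adjusted p under 0.05 in edgeR's quasi-likelihood test, with the Benjamini-Hochberg adjustment over all 19510 genes whose mean reached 0.1 FPKM (fragments per kilobase of transcript and per unit of library size). By this rule 15.3% of all tested genes were called, 7.91% as higher and 7.42% as lower, so the 3 higher members of 9 stand against a background in which many genes moved. Over the 9 genes the median log2 fold change (OX-LDL over Control) was -0.14, and over all tested genes it was -0.0043. The study's own rule for a differentially expressed gene was a fold above 2 or below 0.5 with an unadjusted p under 0.05. Applied to the edgeR fit used here, it took PTGES alone among the members and 6.36% of all tested genes. The paper applied the rule to its own run of edgeR or DESeq2, so its gene list can differ.

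The bases upstream of the 3 genes that rose and of PTGS2, the cyclooxygenase gene that is classically induced by inflammatory stimuli, show how differently these starts are built. RefSeq starts on GRCh38.p14 were matched for 10 of 10 members. Each line gives the 250 bases before the start on the gene's own strand, and capitals mark motifs found by letter matching on both strands.

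PTGES promoter, chr9:129753043-129753292, minus strand: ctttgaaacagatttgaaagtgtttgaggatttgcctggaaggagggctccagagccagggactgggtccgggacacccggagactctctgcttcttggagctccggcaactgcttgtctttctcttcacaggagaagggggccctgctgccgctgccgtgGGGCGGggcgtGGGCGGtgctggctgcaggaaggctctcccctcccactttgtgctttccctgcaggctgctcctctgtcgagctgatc
PTGES3 promoter, chr12:56688285-56688534, minus strand: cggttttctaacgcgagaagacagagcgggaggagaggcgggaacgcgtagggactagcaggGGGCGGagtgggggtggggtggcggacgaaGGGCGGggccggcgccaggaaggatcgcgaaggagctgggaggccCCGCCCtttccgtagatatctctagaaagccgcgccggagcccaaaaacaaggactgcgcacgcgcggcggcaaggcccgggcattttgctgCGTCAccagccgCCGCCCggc
PTGER2 promoter, chr14:52314062-52314311, plus strand: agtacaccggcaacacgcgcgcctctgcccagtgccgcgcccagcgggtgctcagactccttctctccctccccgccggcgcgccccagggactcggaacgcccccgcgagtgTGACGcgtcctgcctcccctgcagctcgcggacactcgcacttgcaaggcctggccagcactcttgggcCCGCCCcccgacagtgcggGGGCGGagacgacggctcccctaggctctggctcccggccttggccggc
PTGS2 promoter, chr1:186680424-186680673, minus strand: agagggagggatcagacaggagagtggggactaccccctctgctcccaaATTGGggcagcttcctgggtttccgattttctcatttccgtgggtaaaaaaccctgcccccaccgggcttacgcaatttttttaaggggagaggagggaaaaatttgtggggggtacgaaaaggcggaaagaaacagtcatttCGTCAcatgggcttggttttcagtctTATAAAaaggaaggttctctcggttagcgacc

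The motifs searched were the GC box GGGCGG, the cyclic AMP response element half-site TGACG, the E-box CACGTG, the CCAAT box CCAAT, the TATA box TATAAA and the AP-1 site TGANTCA. No base of the member windows lay in more than 1 motif. PTGES had 2 GC boxes, at 89 and 78 bases before the start, and a GC content of 61.2%. The PTGES3 window held 4 GC boxes and 1 half-site, the latter at 21 bases, with a GC content of 68.8%. Its RefSeq start differs from the deposited locus, which ends at base 56688408. Part of the window, with the half-site, therefore lies inside that locus. PTGER2 had 2 GC boxes and 1 half-site in a window of 74.0% GC, the highest of the member windows. The last bases of this window lie inside the deposited PTGER2 locus, which starts at base 52314305. The window of PTGS2 held no GC box, and had a TATA box at 32 bases, a half-site at 58 and a CCAAT box at 201, with a GC content of 50.4%. Of the 10 members, 7 had a GC box in at least 1 window, 4 a half-site, 3 a CCAAT box, 2 a TATA box and 1 an E-box, and none had the AP-1 letters. Several members have more than 1 RefSeq start, so 14 windows stood for the 10 genes. Counted per window, 10 of the 14 held a GC box, 4 a half-site, 3 a CCAAT box, 2 a TATA box and 1 an E-box. The shares over all genes are also per window. Among 34788 distinct windows of the same length from all genes, the GC box letters were in 42.6%, the half-site in 21.2%, the CCAAT letters in 32.0%, the TATA letters in 10.8%, the E-box in 6.31% and the AP-1 letters in 6.59%. These are matches of letters, and no binding was measured.

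PLA2G4A (chr1:186828949-186988981, plus strand), which encodes the cytosolic phospholipase A2 that frees arachidonate, had 0.359, 0.608 and 0.298 FPKM in Control replicates 1 to 3, against 0.167, 0.0715 and 0.399 in OX-LDL replicates 1 to 3. The groups overlapped, because OX-LDL replicate 3 was higher than 2 of the Control libraries. Its mean level was 0.422 ± 0.164 FPKM (SD, n = 3) in Control, and 0.212 ± 0.168 (SD, n = 3) with OX-LDL. The log2 fold change was -0.95 with a 95% interval from -2.42 to 0.53 (edgeR, adjusted p = 0.363), which spans 0.187 to 1.44 times the Control level. The libraries held 4.75 to 39.25 read pairs of this gene. Within OX-LDL, the exact Poisson 95% interval of replicate 2, 1.49 to 11.3 read pairs, did not overlap that of replicate 3, 17.0 to 38.1, so these replicates differed by more than counting error.

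The cyclooxygenases make prostaglandin H2, and PTGS1 is the constitutive and PTGS2 the inducible form. PTGS1 (chr9:122370530-122395703, plus strand) had 2.12, 1.32 and 1.72 FPKM in the Control libraries against 1.85, 2.20 and 0.979 after OX-LDL. Both the highest and the lowest of the 6 values were OX-LDL libraries, and the log2 fold change was -0.01 with a 95% interval from -0.77 to 0.75 (edgeR, adjusted p = 0.987). PTGS2 (chr1:186671791-186680423, minus strand) had 0.201, 0.0881 and 0.161 FPKM in the Control libraries against 0.0921, 0.0953 and 0.204 after OX-LDL. OX-LDL replicate 3 and Control replicate 1 were about level at the top, and the other 4 libraries lay below them. These levels rest on 9.25 to 24.5 read pairs, and the exact Poisson 95% interval of the lowest, 4.28 to 17.4 read pairs, overlaps that of the highest, 15.8 to 36.3. Such intervals hold counting error alone, since the reads do not tell PCR copies from separate molecules. The log2 fold change of PTGS2 was -0.17 with a 95% interval from -1.29 to 0.95 (edgeR, adjusted p = 0.853), so no induction was detectable at this depth and a change of up to 1.93-fold upward lies within the interval. In FPKM, which is scaled for length, PTGS1 stood above PTGS2 in 6 of 6 libraries, with a mean ratio of 12.1 in Control and 16.0 in OX-LDL and a range from 4.79 to 23.1 over the OX-LDL libraries. PTGS2 and PLA2G4A are neighbours on chromosome 1, 148.525 kb apart with 1 gene of the table between them, and neither passed the test.

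**Figure D1:**
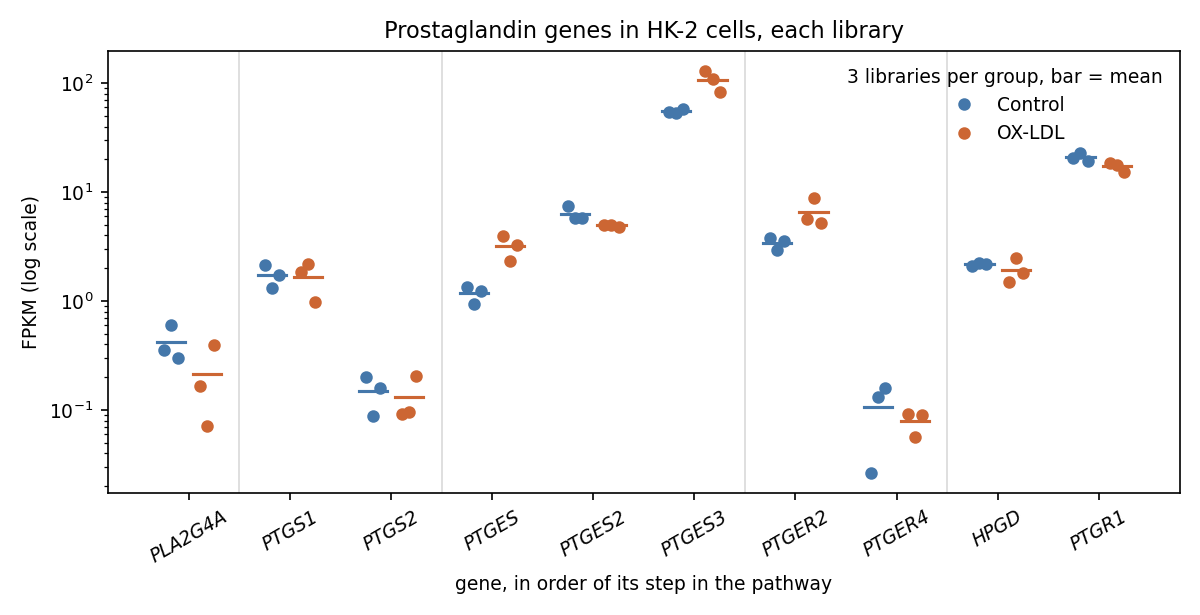
Levels of the 10 prostaglandin genes in each of the 6 libraries, as FPKM on a log axis, with Control and OX-LDL libraries as separate points and the group means as bars. PTGES, PTGES3 and PTGER2 have every OX-LDL point above every Control point, and PTGES3 is the highest gene in both groups at 55.4 and 107 FPKM.

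Of the 3 prostaglandin E synthase genes, PTGES and PTGES3 rose and PTGES2 did not pass the test. PTGES (chr9:129738331-129753042, minus strand) encodes the microsomal synthase that is inducible in many cells and is usually coupled to PTGS2. Its level was 1.35, 0.947 and 1.25 FPKM in the Control libraries, against 3.96, 2.31 and 3.29 after OX-LDL. The lowest OX-LDL library was above the highest Control library. The mean went from 1.18 ± 0.211 to 3.19 ± 0.827 FPKM (SD over n = 3 libraries each), and the log2 fold change was 1.46 (standard error, SE, 0.26, 95% interval 0.85 to 2.07), a fold of 2.75 with an interval from 1.80 to 4.20 (edgeR, adjusted p = 0.0143). The counts behind it were 40.0 to 56.25 read pairs per Control library and 99.5 to 140.75 per OX-LDL library. PTGES kept its direction and size without any 1 library, but its call was lost without Control replicate 2 (adjusted p = 0.0552), without OX-LDL replicate 1 (adjusted p = 0.0508) and without OX-LDL replicate 3 (adjusted p = 0.0545).

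PTGES3 (chr12:56663341-56688408, minus strand) encodes p23, a cytosolic prostaglandin E synthase that is also a co-chaperone of HSP90, and it was the most highly expressed of the 10 genes in both groups. It had 54.9, 52.7 and 58.5 FPKM in the Control libraries against 130.0, 109 and 83.1 after OX-LDL. The Control libraries were close together and the OX-LDL libraries were spread over a wider range, all above them. The mean rose from a mean of 55.4 ± 2.92 to 107 ± 23.5 FPKM (SD over n = 3 libraries each), at a log2 fold change of 0.99 (SE 0.15, 95% interval 0.62 to 1.35, edgeR adjusted p = 0.0102). It was called without any 1 of the 6 libraries, with adjusted p between 0.00895 and 0.0464. Reads can be shared with processed pseudogenes of this gene, and PTGES3P1 also rose, from 12.6 ± 0.905 to 19.8 ± 3.08 FPKM (SD over n = 3 libraries each, log2 fold change 0.68, edgeR adjusted p = 0.0345). Its counts were at most 3.73% of those of PTGES3 in any library. How many of these reads came from which copy cannot be told from the table.

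PTGES2 (chr9:128120693-128128418, minus strand), which encodes a Golgi-associated synthase, was lower after OX-LDL but did not pass the adjusted test. It had 7.39, 5.82 and 5.76 FPKM in the Control libraries against 4.98, 5.04 and 4.81 after OX-LDL. Every OX-LDL library was lower than every Control library, and Control replicate 1 stood above the others. The mean was 6.32 ± 0.922 FPKM in Control against 4.94 ± 0.119 with OX-LDL (SD over n = 3 libraries each), at a log2 fold change of -0.32 (95% interval -0.64 to -0.0047, edgeR adjusted p = 0.159). Groups that do not overlap are common in these data: 37.2% of all tested genes had them, 16.8% higher and 20.5% lower in OX-LDL, against 5 of the 9 tested members, 3 higher and 2 lower.

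Set against each other within a library, PTGES and PTGES3 each took a ratio to PTGES2 that did not overlap between the groups. This had to be so, because PTGES and PTGES3 were higher and PTGES2 lower in every OX-LDL library than in every Control library. The ratios therefore give sizes and add no separate result. The ratio of PTGES to PTGES2 in FPKM was 0.183, 0.163 and 0.216 in the Control libraries against 0.796, 0.459 and 0.684 after OX-LDL, a mean of 0.187 ± 0.0270 against 0.646 ± 0.171 (SD over n = 3 libraries each). The ratio of PTGES3 to PTGES2 had a mean of 8.88 ± 1.37 in Control and 21.7 ± 4.42 in OX-LDL, with no overlap. Of the summed FPKM of the 3 synthase genes, PTGES2 made up 8.80% to 11.6% in Control and 3.58% to 5.27% in OX-LDL, and PTGES3 made up 86.3% to 93.7% over all 6 libraries. PTGES took 1.59% to 2.13% in Control and 1.99% to 3.61% in OX-LDL, ranges that overlap. The ratios were chosen after the values had been seen and were not tested.

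**Figure D2:**
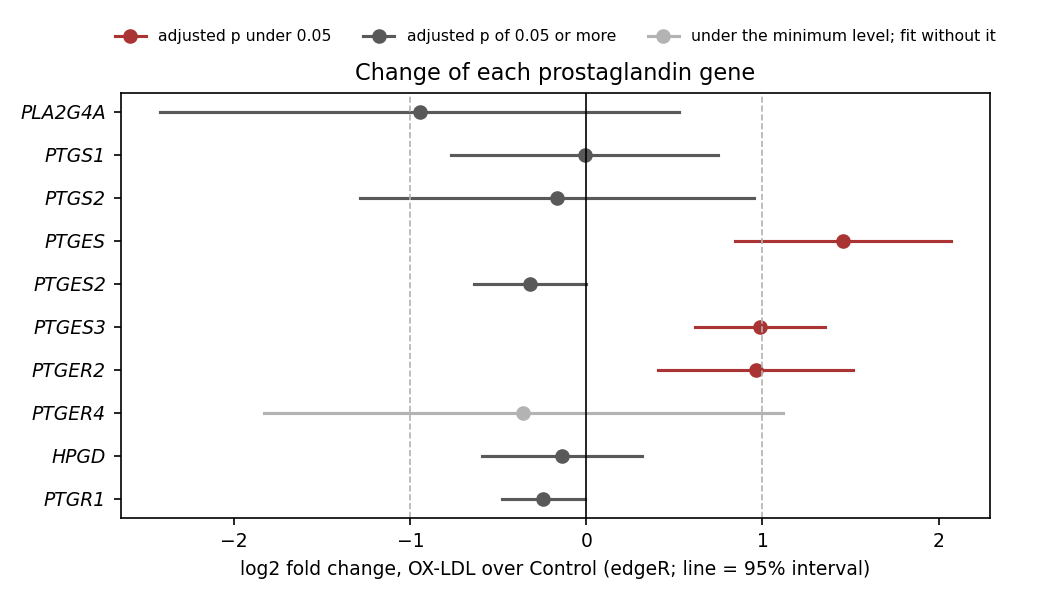
Log2 fold change of each prostaglandin gene, OX-LDL over Control, with its 95% interval from edgeR. The intervals of PTGES, PTGES3 and PTGER2 lie above 0, those of PTGES2 and PTGR1 end just below 0, and PTGER4 comes from the fit with no minimum level.

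Of the receptor genes, PTGER2 rose and PTGER4 was near the limit of detection. PTGER2 (chr14:52314305-52328598, plus strand) encodes EP2, a prostaglandin E2 receptor that raises cyclic AMP. It had 3.75, 2.92 and 3.60 FPKM in the Control libraries against 5.61, 8.79 and 5.16 after OX-LDL. All OX-LDL libraries were above all Control libraries, and OX-LDL replicate 2 was the highest. The mean rose from a mean of 3.42 ± 0.444 to 6.52 ± 1.98 FPKM (SD over n = 3 libraries each), at a log2 fold change of 0.96 (SE 0.23, 95% interval 0.41 to 1.51, edgeR adjusted p = 0.0366). This call was the least stable of the 3. Leaving out 1 library kept it only without OX-LDL replicate 2 (adjusted p = 0.0411, log2 fold change 0.68). It was lost without Control replicate 1 (adjusted p = 0.0745), Control replicate 2 (adjusted p = 0.121), Control replicate 3 (adjusted p = 0.0838), OX-LDL replicate 1 (adjusted p = 0.0680) and OX-LDL replicate 3 (adjusted p = 0.0541). In each of these fits the direction was the same.

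PTGER4 (chr5:40679915-40693735, plus strand) encodes EP4, the other cyclic AMP-raising receptor of prostaglandin E2. Its counts were 10, 43 and 46 in the Control libraries against 25, 20 and 30 after OX-LDL, where a read pair adds about 4 counts and the detection limit was set at 12 counts, or 3 read pairs. Control replicate 1 was under that limit and the others were above it, and the groups overlapped. The FPKM levels were 0.0266, 0.133 and 0.159 against 0.0925, 0.0565 and 0.0905. In the fit with no minimum level its log2 fold change was -0.36 with a 95% interval from -1.83 to 1.12 (edgeR, adjusted p = 0.788). Its processed pseudogene PTGER4P2 had at most 7 counts in any library, and in Control replicate 1 its counts were 50.0% of those of PTGER4. TTC33 overlaps PTGER4 on the other strand with 1039 to 1567 counts, and the sources used here do not give the strand setting of the counting.

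**Figure D3:**
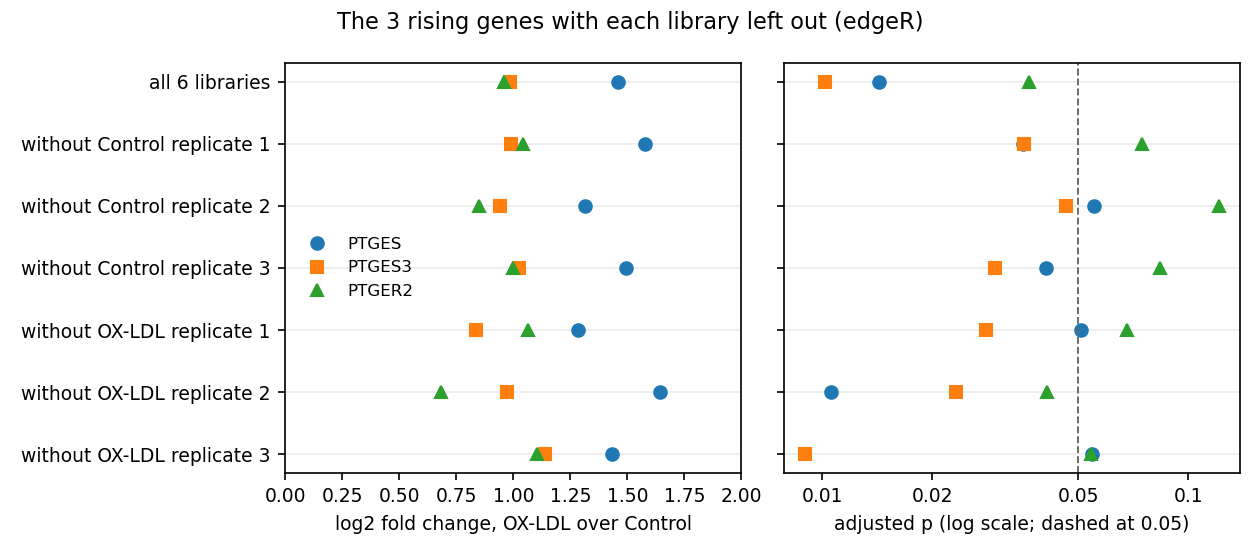
Log2 fold change (left) and adjusted p on a log axis (right) of PTGES, PTGES3 and PTGER2 in edgeR with all 6 libraries and with each library left out. PTGES3 stays left of the dashed line at 0.05 throughout, PTGES crosses it in 3 of 6 fits and PTGER2 in 5 of 6.

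Neither gene of inactivation was called. HPGD (chr4:174490175-174523065, minus strand) encodes the dehydrogenase that starts the breakdown of prostaglandins. It had 2.12, 2.25 and 2.17 FPKM in the Control libraries against 1.51, 2.48 and 1.82 after OX-LDL. OX-LDL replicate 2 was the highest of the 6 libraries and the other OX-LDL libraries were below all Control libraries. The log2 fold change was -0.14 with a 95% interval from -0.59 to 0.32 (edgeR, adjusted p = 0.681), which spans 0.663 to 1.24 times the Control level. PTGR1 (chr9:111549722-111599835, minus strand) encodes a reductase that acts on the products of HPGD and on leukotriene B4. It had 20.7, 22.8 and 19.2 FPKM in the Control libraries against 18.5, 17.9 and 15.4 after OX-LDL. The groups did not overlap, and the means were 20.9 ± 1.82 and 17.3 ± 1.67 FPKM (SD over n = 3 libraries each). The log2 fold change was -0.24 with a 95% interval from -0.48 to -0.0098 (edgeR, adjusted p = 0.150). At an unadjusted p under 0.05, 5 of the 9 members passed, beside 30.4% of all tested genes, and PTGES2 and PTGR1 were the 2 lower ones, beside 15.1%. DESeq2 and limma on log2(FPKM + 0.1) called 0 members lower at an adjusted p under 0.05. ZNF483 overlaps PTGR1 on the other strand with at most 154 counts.

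The ratio of the inducible synthase to the inactivating dehydrogenase did not overlap between the groups either. PTGES over HPGD was 0.640, 0.421 and 0.573 in the Control libraries against 2.63, 0.933 and 1.81 after OX-LDL. Each OX-LDL ratio was above each Control ratio, and OX-LDL replicate 2 lay nearest to Control. This ratio was chosen after the values had been seen and was not tested.

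In Control, the order of the mean levels in FPKM ran from PTGES3 through PTGR1, PTGES2, PTGER2, HPGD, PTGS1, PTGES, PLA2G4A and PTGS2 to PTGER4. The ranges of HPGD and PTGS1, of PTGS1 and PTGES, and of PTGS2 and PTGER4 overlapped, and those of the other neighbours did not. In OX-LDL, PTGER2 stood above PTGES2, with no overlap in either group, and PTGES stood above HPGD, with overlapping ranges, and above PTGS1, with no overlap. PLA2G4A, PTGS2 and PTGER4 were the lowest in both groups. The spread within OX-LDL was widest for PLA2G4A, with a coefficient of variation of 79.2%, and narrowest for PTGES2, at 2.41%.

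The genes whose pattern over the 6 libraries was most like that of PTGES3 were MAP3K6, HNRNPUL2 and RHOBTB1. Likeness was the root mean square difference of log2(FPKM + 0.1), each gene centred on its own mean, and it was 0.126, 0.143 and 0.144 for these 3 of 12252 genes whose mean reached 1 FPKM. For PTGS2 the nearest were SETMAR (0.0867), PEX2 (0.0978) and ENSG00000231536 (0.109). PTGS2 itself lay between 0.0881 and 0.204 FPKM, so the added 0.1 FPKM flattens its pattern. Its differences therefore cannot be compared in size with those of PTGES3. These are descriptions over 6 libraries.

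Around the 10 genes, 7 lists with 132 further genes of eicosanoid metabolism and signalling were read from the same fit. Of the 132, 87 were tested, 10 were called higher and 9 lower. That is 21.8% of those tested, beside 15.3% of all tested genes. Without OX-LDL replicate 1 the shares were 6.90% and 6.47%, without Control replicate 2 they were 8.05% and 5.95%, and without OX-LDL replicate 3 they were 8.05% and 5.96%. Without Control replicate 1 they were 14.9% and 9.21%, and without Control replicate 3 they were 16.1% and 10.2%. Without OX-LDL replicate 2 they were 19.5% and 15.1%. The median log2 fold change of the 87 was 0.04. With all 6 libraries, the called share was 18.8% of tested other prostanoid genes, 28.6% of other phospholipases A2 and 33.3% of arachidonate supply genes. It was 0% of lipoxygenase and leukotriene genes, 40.0% of the cytochrome P450 branch, 25.0% of the inducers and mRNA regulators and 11.1% of EP2 and EP4 signalling. Each list had only 5 to 18 tested genes, and 15.3% of all tested genes were called.

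Among 22 other prostanoid genes, 16 were tested, 3 rose and none fell, with a median log2 fold change of 0.22. PTGFR, the receptor of prostaglandin F2α, had 0.946, 1.01 and 1.01 FPKM in the Control libraries against 2.81, 2.19 and 2.58 after OX-LDL. The Control libraries were nearly level and the groups lay far apart, at a log2 fold change of 1.38 (SE 0.13, edgeR adjusted p = 0.00229), and PTGFR was called without any 1 of the libraries. PTGFRN, which encodes a protein that binds this receptor and dampens it, rose from a mean of 15.7 ± 0.888 to 20.4 ± 0.830 FPKM (SD over n = 3 libraries each, log2 fold change 0.41, edgeR adjusted p = 0.0160). CBR1, a carbonyl reductase that can turn prostaglandin E2 into F2α, rose from a mean of 16.1 ± 0.728 to 20.5 ± 0.785 FPKM (SD over n = 3 libraries each, log2 fold change 0.38, edgeR adjusted p = 0.0197). PTGFRN lost its call in 3 of the 6 fits, those without Control replicate 2 and without OX-LDL replicates 1 or 3, and CBR1 kept it only without Control replicate 1 or OX-LDL replicate 2. AKR1B1, an aldose reductase that can make prostaglandin F2α, was the most highly expressed gene of this list and did not pass the test. It had 412, 353 and 189 FPKM in the Control libraries against 207, 131 and 185 after OX-LDL, at a log2 fold change of -0.84 (edgeR adjusted p = 0.112), and was chosen after its values had been seen. The receptor genes PTGER3, PTGIR, PTGDR and PTGDR2 and the synthase gene HPGDS had at most 12 counts in each of the 6 libraries.

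**Figure D4:**
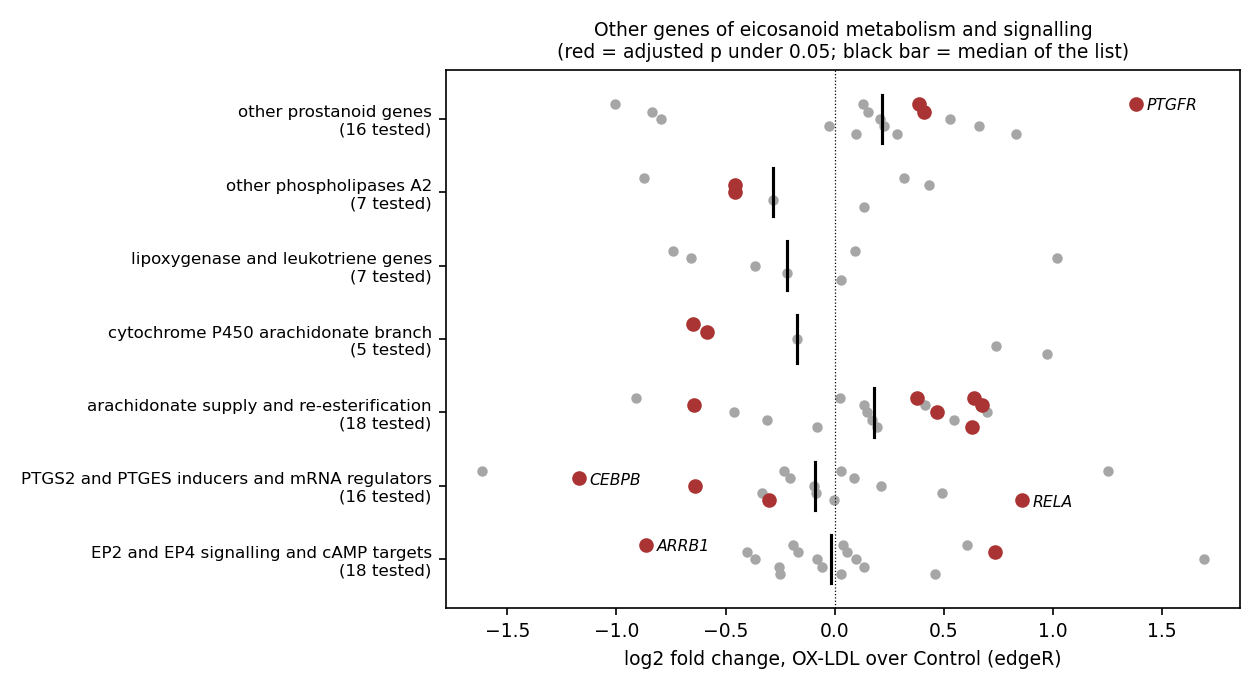
Log2 fold change, OX-LDL over Control, of each tested gene of the 7 eicosanoid lists, with called genes in red and the median of each list as a bar. PTGFR is the highest called gene at 1.38 and CEBPB the lowest at -1.17.

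Of 18 tested genes in the list of arachidonate supply and re-esterification, 5 rose and 1 fell, with a median log2 fold change of 0.18. ELOVL5, a fatty acid elongase of the polyunsaturated pathway, had 64.0, 59.8 and 60.2 FPKM in the Control libraries against 92.5, 91.8 and 95.5 after OX-LDL (log2 fold change 0.64, SE 0.065, edgeR adjusted p = 0.00273). ACSL4, an acyl-CoA synthetase that favours arachidonate and channels it back into phospholipid, rose from a mean of 23.4 ± 1.94 to 36.6 ± 2.21 FPKM (SD over n = 3 libraries each, log2 fold change 0.68, edgeR adjusted p = 0.00639). Its relatives ACSL3 and ACSL5 rose by 0.63 and 0.38 on the log2 scale, and MBOAT2, a lysophospholipid acyltransferase, by 0.47. DAGLB, a diacylglycerol lipase that makes the arachidonate-containing lipid 2-arachidonoylglycerol, fell from a mean of 3.50 ± 0.725 to 2.18 ± 0.101 FPKM (SD over n = 3 libraries each, log2 fold change -0.65, edgeR adjusted p = 0.0344). ELOVL5 and ACSL4 were called without any 1 of the libraries. ACSL3 lost its call without Control replicate 2, MBOAT2 without OX-LDL replicate 1 or 3, and 2 further genes kept it in a single fit, ACSL5 without OX-LDL replicate 2 and DAGLB without Control replicate 1.

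Of the other phospholipases A2, 7 of 20 were tested, 2 fell and none rose, with a median log2 fold change of -0.28. PLA2G12A, a secreted enzyme, fell from 7.07 ± 0.530 to 5.05 ± 0.448 FPKM, and PLA2G16, an acyltransferase and phospholipase of membranes, from 14.5 ± 1.86 to 10.3 ± 0.725 FPKM (SD over n = 3 libraries each, log2 fold changes -0.46 and -0.46). Of the 6 fits without a library, PLA2G12A kept its call only without OX-LDL replicate 2 and PLA2G16 only without Control replicate 1. At or under the detection limit were 12 of the 20, among them PLA2G2A and PLA2G5.

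In the other branches that use arachidonate, 7 lipoxygenase and leukotriene genes and 7 of the cytochrome P450 branch were at or under the detection limit. Of 16 lipoxygenase and leukotriene genes, 7 were tested and 0 were called by edgeR, DESeq2 or limma, with 1 at an unadjusted p under 0.05. In the cytochrome P450 branch, 5 of 14 genes were tested, 2 were called lower and none higher. At an unadjusted p under 0.05, 4 of the 5 passed, beside 30.4% of all tested genes. EPHX2 and CYP4F11 were higher in every OX-LDL library without being called (log2 fold changes 0.74 and 0.97, edgeR adjusted p = 0.0774 and 0.118). CYP2U1, a P450 that hydroxylates arachidonate, fell from 4.79 ± 0.128 to 2.98 ± 0.594 FPKM, and EPHX1, the microsomal epoxide hydrolase, from 93.1 ± 12.4 to 60.7 ± 3.03 FPKM (SD over n = 3 libraries each, log2 fold changes -0.65 and -0.59). EPHX1 lost its call in 3 of the 6 fits, those without Control replicate 2 and without OX-LDL replicates 1 or 3, and CYP2U1 kept it only without OX-LDL replicate 2.

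Genes that are known to induce PTGS2 or PTGES or to control their mRNA showed 1 rise and 3 falls among 16 tested, with a median log2 fold change of -0.09. CEBPB, a transcription factor of inflammatory genes, had 12.3, 15.8 and 15.4 FPKM in the Control libraries against 4.87, 7.76 and 6.22 after OX-LDL. The groups were well apart, at a log2 fold change of -1.17 (SE 0.19, edgeR adjusted p = 0.0114). ZFP36L1, which binds AU-rich elements and speeds mRNA decay, fell from a mean of 89.5 ± 3.76 to 56.2 ± 6.90 FPKM (SD over n = 3 libraries each, log2 fold change -0.64, edgeR adjusted p = 0.00918). Both were called without any 1 of the libraries. The NF-κB subunit gene RELA rose from 3.80 ± 0.653 to 6.75 ± 1.75 FPKM and NFKB1 fell from a mean of 9.24 ± 0.564 to 7.33 ± 0.0419 FPKM (SD over n = 3 libraries each, log2 fold changes 0.86 and -0.30). RELA kept its call only without Control replicate 3 or OX-LDL replicate 2, and NFKB1 in 0 of the 6 fits without a library. At an unadjusted p under 0.05, 8 of the 16 passed, beside 30.4% of all tested genes. The cytokine gene TNF, with 8 to 70 counts, was lower in every OX-LDL library (log2 fold change -1.61, edgeR adjusted p = 0.0977). The receptor gene IL1R1 was higher in every OX-LDL library (log2 fold change 1.25, edgeR adjusted p = 0.0861). IL1A and IL1B were detected but under the minimum level for testing.

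Downstream of the receptors, 18 of 22 genes of EP2 and EP4 signalling were tested, and 1 rose and 1 fell, with a median log2 fold change of -0.01. GPRC5A, a receptor gene known to be induced by cyclic AMP, rose from a mean of 7.88 ± 0.565 to 12.8 ± 3.09 FPKM (SD over n = 3 libraries each, log2 fold change 0.73, edgeR adjusted p = 0.0308). ARRB1, an arrestin that uncouples receptors, fell, with 4.34, 4.45 and 3.21 FPKM in the Control libraries against 1.72, 2.79 and 1.94 after OX-LDL (log2 fold change -0.86, SE 0.21, edgeR adjusted p = 0.0390). GPRC5A kept its call only without OX-LDL replicate 3, and ARRB1 only without Control replicate 3 or OX-LDL replicate 2.

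The libraries held 62561347 to 76797607 counts, and the first principal component, with 34.8% of the variance, separated the groups. Of 20 tubular epithelial markers, 18 were detected, meaning over 12 counts in at least 1 library, and 13 reached the minimum level for testing. HNF4A, ANPEP, CUBN, AQP1 and SLC34A1 were detected with a mean under 0.1 FPKM. The sum over the 20 was 219.9 to 246.2 FPKM in Control against 269.0 to 315.2 with OX-LDL. Most of it came from EPCAM, KRT8, KRT18 and PAX8. Among the 20, KRT19 and KRT8 rose and PAX8 fell (without 1 library, PAX8 was called in 2 of 6 fits). The proximal tubule genes LRP2 and SLC22A6 were at or under the detection limit in all 6 libraries. Of 12 macrophage and leukocyte markers, 5 were detected, with a sum of 3.15 to 7.92 FPKM in Control against 9.38 to 14.8 with OX-LDL, and PTPRC, TYROBP, AIF1, CD163, MRC1, CD3E and CD79A were at or under the limit. Most of that sum was CD68, a lysosomal protein gene, with 2.77, 5.31 and 7.56 FPKM in the Control libraries against 13.6, 8.91 and 9.91 after OX-LDL (edgeR adjusted p = 0.0858). Of the 12, 3 were tested and none was called. LAPTM5 had 0, 19 and 19 counts in Control against 111, 34 and 98 after OX-LDL (edgeR adjusted p = 0.136). CSF1R, under the minimum level for testing, had 9, 12 and 4 counts against 65, 16 and 94. CD14 and ITGAM, the other detected markers, had overlapping groups. Endothelial markers summed to at most 0.147 FPKM in any library, and fibroblast markers to 10.3 to 12.3 FPKM in Control against 9.22 to 14.3 with OX-LDL. Most of the fibroblast sum was LUM alone, with 9.38 to 11.5 FPKM in Control against 8.06 to 13.1 with OX-LDL. DCN had no counts in any library. Of 8 fibroblast markers, 3 were tested and none was called. The part of the markers of all these lists in the values of the prostaglandin genes was not tested. In bulk RNA, a change in the share of cells that express a gene and a change in its RNA per cell cannot be told apart.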

How the data were processed

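RNA-seq of poly(A) RNA was analysed in 3 Control and 3 OX-LDL libraries of HK-2 cells, grouped by their labels. The authors deposited 1 table with, for each of 58825 genes and each library, an estimated count and an FPKM value. The authors' estimated counts are whole numbers with no scaling for library size. The deposited FPKM values are divided by transcript length and library size, and a count of 0 is listed as 0.0001 FPKM. The submitters' processing notes name cutadapt 1.9, HISAT2 2.0.4, StringTie 1.3.4d, edgeR, DESeq2 and GRCh38, with no role or order. Counts of 4, 8 and 12 occurred 3.26, 2.95 and 2.13 times as often as the counts next to them, so a read pair was taken as 4 counts. Replicates gave a chi-square per gene of 9.54 to 16.3 for each pair, where 1 library sequenced more than once would give a value near 1.

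Counts were fitted with edgeR 4.0.16 (R 4.3.3; TMM, glmQLFit, glmQLFTest, group as the only term) for the 19510 genes whose mean reached 0.1 FPKM, with the Benjamini-Hochberg adjustment across them all. Standard errors are the log2 fold change over the square root of F, and 95% intervals use the fitted degrees of freedom. An exact permutation test of 3 against 3 libraries cannot give a two-sided p below 0.1, so p-values come only from fits across all genes. The fits were tested on simulated data.

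The 10 members, the 7 lists and the markers were chosen with earlier results of these data known. All members were named, and from each other list at most 6 genes with an adjusted p under 0.05 and a mean that reached 1 FPKM, in order of p, together with receptors, synthases or phospholipases under the detection limit of 12 counts. PTGES3P1, PTGER4P2, TTC33 and ZNF483 were named because they overlap or resemble members. AKR1B1, TNF, IL1R1, IL1A, IL1B, EPHX2, CYP4F11 and the markers were named after their values had been seen. Promoter sequences are from RefSeq (GRCh38.p14). Alternatives were DESeq2 1.42.0, limma 3.58.1 on log2(FPKM + 0.1), + 1 or + 0.01, DESeq2 size factors or total counts in edgeR, a minimum of 1 FPKM or none, counts divided by 4, a replicate block, and leaving out each library.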

Additional observations from a re-analysis of the deposited data

How the results depend on the processing

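The number of called members stayed at 3 with DESeq2, limma at each of 3 pseudocounts, the other size factors, the other minimum levels and counts divided by 4. Leaving out 1 library gave 1 to 3 called members, 1161 to 2943 called genes in place of 2991, and 6 to 17 called genes of the 7 eicosanoid lists in place of 19. DESeq2 called 4430 genes and 27 of the lists. The labels do not say whether the same replicate numbers pair the libraries of both groups. The correlations of same-numbered deviations were -0.041, -0.0031 and 0.036, which cannot show how the cultures were set up. With the replicate block the calls were 1636 genes, 2 members (PTGER2 was lost, adjusted p = 0.102) and 11 genes of the lists, and the cause was not tested. Of the uncalled members, 3 changed sign without 1 library, PTGS1 (log2 fold change from -0.26 to 0.26), PTGS2 (-0.64 to 0.11) and HPGD (-0.36 to 0.017), and none of the 9 changed sign under the other alternatives. The intervals of PLA2G4A, PTGS2 and PTGER4, the members with the fewest read pairs, include changes of over 2-fold, and for PLA2G4A the spread between OX-LDL libraries was larger than counting error.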
